A study of Mus musculus with 27 samples.

Results

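The stretches of the mouse genome described here are those where CpG methylation stayed near 0 in every line and on every day of the study. The genome was divided by the authors into windows of 100 CpG cytosines, and a window was included when it lay on an autosome, had a value in all 27 libraries, and had a mean of its 3 replicates under 5% in each of the 9 groups. Of 422141 autosomal windows with complete values, 14339 met this rule, which is 3.40%. The windows were thus chosen by their own methylation in all groups. They are called unmethylated windows below. Their levels are therefore given as a description with no test, and only their neighbours outside the set were tested between groups. Those neighbours also depended on the rule, because each had failed it, with a mean of 5% or more in some group.

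The libraries came from mouse embryonic stem cells kept in 2i/Lif medium (D0) and from epiblast-like cells obtained from them on D1 and D2, with 3 libraries for each line and day. TET_KO is a line that lacks all of Tet1, Tet2 and Tet3, and TET_WT is the wild-type line it was made from. DNMT_WT, also wild type, gave rise to another knockout, of Dnmt1, Dnmt3a and Dnmt3b, which is not analysed here, so no group used here lacks a DNA methyltransferase. The labels do not say how the knockout clones were isolated or whether replicates were separate cultures, so every p-value rests on the spread among libraries alone, which may be technical. Nor was cell identity checked against markers, because only DNA was measured.

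In mammals, DNMT3A and DNMT3B add methyl groups to CpGs and DNMT1 copies them at replication, while the TET enzymes oxidise 5-methylcytosine as a step towards its removal. CpG islands, short stretches where CpGs are dense, often lie at gene starts and are known for staying unmethylated in most cell types. When naive embryonic stem cells in 2i move to the epiblast-like state, most of the genome gains methylation. Bisulfite sequencing reads 5-methylcytosine and 5-hydroxymethylcytosine alike, so the values are the sum of both.

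The bases before a few gene starts show the DNA in and beside these windows. Each sequence below is the 250 bases before the start in the RefSeq promoter table (GRCm38.p6), 5′ to 3′ on the strand of the gene, with each CpG in capitals. Sox2 (chr3:34649745-34649994, plus strand) and Sox1 (chr8:12395269-12395518, plus strand) encode SOX transcription factors of pluripotent and neural cells, and Foxd3 (chr4:99656049-99656298, plus strand) encodes a forkhead factor of the early epiblast. The starts of these 3 genes lie in unmethylated windows. Ddi2 (chr4:141723420-141723669, minus strand), Wnt2b (chr3:104961710-104961959, minus strand), a WNT ligand gene, and Tcl1 (chr12:105222738-105222987, minus strand), a gene active in naive stem cells, have starts outside them and are shown for contrast. A start window does not always hold all the bases before the start. Of the 250 printed bases, 225 lie in unmethylated windows for Sox2 (83 of them in its start window), 144 for Foxd3 and 250 for Sox1. For Ddi2 and Tcl1 it is 0, but for Wnt2b 184 lie in unmethylated windows and 66 in the start window outside the set.
Sox2: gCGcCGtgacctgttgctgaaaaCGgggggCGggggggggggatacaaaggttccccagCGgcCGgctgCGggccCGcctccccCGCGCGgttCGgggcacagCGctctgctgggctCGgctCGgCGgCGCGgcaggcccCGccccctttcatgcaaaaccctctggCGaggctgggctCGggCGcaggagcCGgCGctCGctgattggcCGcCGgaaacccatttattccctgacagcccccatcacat
Sox1: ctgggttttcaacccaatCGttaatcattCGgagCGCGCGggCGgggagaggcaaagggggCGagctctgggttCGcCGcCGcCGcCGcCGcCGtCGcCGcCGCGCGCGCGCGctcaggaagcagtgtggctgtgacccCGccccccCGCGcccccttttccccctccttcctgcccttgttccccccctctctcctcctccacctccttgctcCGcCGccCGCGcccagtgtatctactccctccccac
Foxd3: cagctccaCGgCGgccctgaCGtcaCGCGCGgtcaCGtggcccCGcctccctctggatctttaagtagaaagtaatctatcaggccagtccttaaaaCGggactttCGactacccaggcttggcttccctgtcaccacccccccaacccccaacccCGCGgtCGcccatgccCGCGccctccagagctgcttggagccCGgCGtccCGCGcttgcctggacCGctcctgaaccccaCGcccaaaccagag
Ddi2: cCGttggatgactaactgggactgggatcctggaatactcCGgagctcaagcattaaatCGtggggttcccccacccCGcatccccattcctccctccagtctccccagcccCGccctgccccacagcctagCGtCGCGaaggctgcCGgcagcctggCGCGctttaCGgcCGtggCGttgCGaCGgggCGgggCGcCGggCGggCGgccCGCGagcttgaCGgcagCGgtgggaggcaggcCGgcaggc
Wnt2b: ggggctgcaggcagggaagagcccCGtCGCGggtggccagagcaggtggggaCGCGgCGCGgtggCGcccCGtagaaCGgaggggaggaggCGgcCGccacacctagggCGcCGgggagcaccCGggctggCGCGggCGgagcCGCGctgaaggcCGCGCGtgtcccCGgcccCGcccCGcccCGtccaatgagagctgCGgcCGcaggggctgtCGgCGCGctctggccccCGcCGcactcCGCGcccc
Tcl1: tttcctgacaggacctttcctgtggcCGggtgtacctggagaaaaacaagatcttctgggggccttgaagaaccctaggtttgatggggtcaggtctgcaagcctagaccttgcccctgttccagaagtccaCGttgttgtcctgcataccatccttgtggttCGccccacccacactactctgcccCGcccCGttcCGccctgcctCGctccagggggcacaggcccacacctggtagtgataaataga

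The 250 bases held 27 CpGs before Sox2, 29 before Sox1 and 21 before Foxd3, but 7 before Tcl1. CpG count alone did not separate the groups, since Wnt2b had 36 and Ddi2 had 26. The window at the Sox2 start (chr3:34649912-34650476) was listed at 0 in 19 of 27 libraries, and its highest value was 1.15%, in TET_WT D0 replicate 2. In TET_KO it read 0.144, 0 and 0% on D0, 0.655, 0.422 and 0% on D1 and 0, 0.362 and 0% on D2. These values overlapped those of both wild-type lines on each day. The window at the Sox1 start read 0% in all 3 TET_WT D0 libraries and 0.602, 0.347 and 0.463% in TET_KO D0. On D2 it read 0.160, 0.327 and 0.251% in TET_WT and 0.926, 0.407 and 0.909% in TET_KO.

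Tcl1 shows the opposite course. Its start window (chr12:105221937-105223530) held 1.03% ± 0.641 (SD, n = 3) in TET_WT on D0 and 31.4% ± 2.00 on D2, and in TET_KO it went from 4.02% ± 0.227 to 32.2% ± 3.82. The start window of Wnt2b, only 538 bp long, had group means of 0.735 to 4.33% in the wild-type groups and passed the 5% line in TET_KO alone, at 5.79% ± 0.935, 6.24% ± 2.08 and 8.18% ± 0.611 on D0, D1 and D2. Ddi2 lay at an edge. Its start fell 10 bp outside one of the least methylated windows of the genome, chr4:141723068-141723409, whose mean over 27 libraries was 0.0369%. The neighbouring window that held the start was 1380 bp long and reached 9.79% ± 1.59 in TET_WT, 14.6% ± 0.354 in DNMT_WT and 16.9% ± 1.80 in TET_KO on D2.

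Taken as a set, the unmethylated windows were short. Their median length was 531 bp (5th to 95th percentile 303 to 1216 bp), against 4949 bp for all autosomal windows. In total they covered 8898140 bp, or 0.379% of the autosomal length in windows. Because every window holds the same number of CpG cytosines, length measures CpG density inversely. The sources used here do not say whether 100 counts cytosines of a single strand or of both. In 1062 promoters lying whole inside a window of at most 600 bp, the CpG sites of the printed reference scaled to a median of 49.5 per window (quartiles 45.5 and 54.1), which matches counting both strands of about 50 CpG sites.

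The share of windows that met the rule fell with length. Among windows of up to 300 bp it was 97.6%, and among those over 300 and up to 400 bp it was 96.3%. It was still 89.6% from over 500 to 600 bp, then 49.3% from over 800 to 1000 bp, 16.7% from over 1000 to 1500 bp and 2.33% from over 1500 to 2000 bp. Among windows of intermediate length the share was higher where a gene start was present. From over 800 to 1000 bp, 65.1% of the windows with a start and 41.7% of those without one qualified, while at up to 300 bp the shares were 97.4 and 97.6%.

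**Figure D1:**
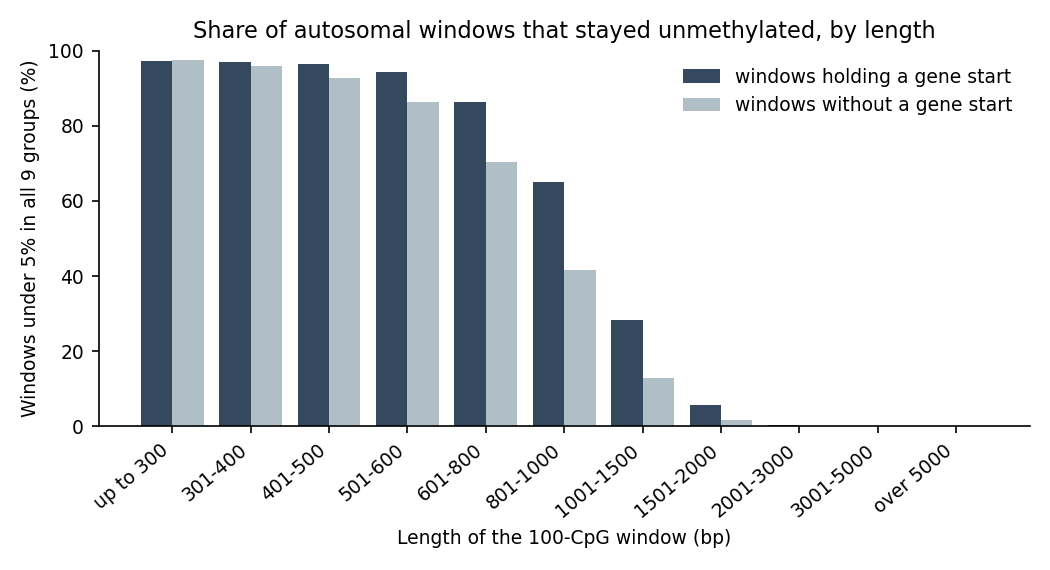
Share of autosomal windows whose mean was under 5% in all 9 groups (vertical axis, percent) for each range of window length (horizontal axis, bp), with dark bars for windows that hold a gene start of the RefSeq promoter table and light bars for those that do not. The pairs of bars are near 97% at up to 300 bp, stand apart most over 800 and up to 1000 bp (65.1 and 41.7%), and are near 0 above 2000 bp.

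Unmethylated windows came in clusters. They formed 9032 runs of neighbouring windows, of which 5468 were single windows, 2382 pairs and 816 triplets, and the longest held 9 windows. In all, 61.9% had another unmethylated window beside them. The 9-window run (chr15:96284219-96288692) lay over Arid2, which encodes a subunit of a SWI/SNF chromatin remodelling complex. Runs of 7 windows lay over Setd1b, a histone H3 lysine 4 methyltransferase (chr5:123135643-123143150), Sin3a, a scaffold of histone deacetylase complexes (chr9:57071411-57077433), Bcl11a, a zinc finger repressor known from blood and brain (chr11:24076314-24082280), and Sall1, a developmental zinc finger factor (chr8:89040479-89045342). Others lay over Tnrc18, Zfp516, Pcdh7, Brd2 and Ctbp2. Chromosome 11 had the highest share of windows in the set, 4.93%, and chromosome 1 the lowest, 2.66%.

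Single windows were slightly more methylated than those in long runs, except in the wild-type lines on D0. On D2, windows alone in their run averaged 0.718% ± 0.0328 (SD, n = 3) in TET_WT and 1.26% ± 0.0635 in TET_KO, while windows in runs of 3 or more averaged 0.534% ± 0.0514 and 0.960% ± 0.0371. On D0 the values were 0.263 and 0.270% in TET_WT and 0.325 and 0.347% in DNMT_WT. Single windows were also longer (median 584 against 481 bp), and the part of length in the difference was not tested.

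Most of the set lay in or beside genes. Of the 14339 windows, 95.6% overlapped a RefSeq gene body (95% Wilson limits 95.3 and 96.0%) and 92.7% a protein-coding one, against 62.3 and 50.9% of the other autosomal windows. The limits take windows as independent, although 61.9% had another of the set beside them, so they are too narrow to be read as a spread. On the chromosomes the promoter table covers, which leave out chromosome 18, 5566 of 13916 held a gene start (39.997%) and 76.1% lay within 1000 bp of one. The corresponding shares were 5.29 and 10.4% among other windows. Length differs between these sets, and a long window has more room for a start, so the shares describe windows and not equal lengths of DNA. Of the 5138 runs with a start, 933 (18.2%) held starts on both strands.

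A further 2304 windows (16.6%) were over 10000 bp from any start in the table. The table is not complete, and 1610 of these 2304 (69.9%) lay within 1000 bp of an end of a protein-coding gene, either its start or its finish. Only 347 were over 10000 bp from any such end, of which 260 lay inside a gene body. On D2, windows over 10000 bp from a start averaged 0.641% ± 0.0643 in TET_WT and 1.20% ± 0.0475 in TET_KO, and those holding a start averaged 0.605% ± 0.0303 and 1.00% ± 0.0538.

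Promoters whose start fell in an unmethylated window (6809, counting each start in the table) had a median of 27 CpGs in 300 bases (250 before the start and 50 after; quartiles 21 and 35), a GC content of 66.0% and an observed-to-expected CpG ratio of 0.866. The 23632 promoters elsewhere had 5 CpGs, 50% GC and a ratio of 0.279. With 0 to 2 CpGs, 0.0577% of promoters lay in the set. The share was 16.1% at 10 to 14 CpGs, 50.9% at 20 to 24 and 79.2% at 30 or more. Of the 8136 promoters with at least 20 CpGs, 66.7% started in an unmethylated window, 8.78% in one whose highest group mean was 5 to under 10%, 10.8% in one at 10 to under 20%, 12.2% at 20 to under 50% and 1.54% at 50% or more. The start windows of these classes had median lengths of 518, 1032, 1533, 2278 and 2878 bp. Of the CpG-rich starts at 20 to under 50%, 97.2% lay in a window longer than 1000 bp, against 5.95% of those in the set.

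Motifs were searched on both strands of the same 300 bases. The GC box of SP and KLF factors (GGGCGG) was present in 77.3% of promoters in the set, in 23.9% of those elsewhere and in 35.9% of all promoters. Among promoters outside the set with at least 20 CpGs, the share was 77.1%. The ETS core (CCGGAAG) was present in 19.2% in the set, 6.14% elsewhere, 9.07% of all and 19.4% of CpG-rich promoters outside. For the NRF1 core (TGCGCA) the shares in the same order were 16.6, 5.30, 7.82 and 16.8%, and for the YY1 core (ATGGCGG) 9.69, 2.45, 4.07 and 8.27%. For the CRE core (TGACGTC) they were 6.49, 2.32, 3.26 and 6.31%, and for the E-box of USF and MYC (CACGTG) 10.8, 6.09, 7.15 and 12.3%. The TATA box (TATAAA) had the reverse order, at 4.76, 16.1, 13.6 and 3.62%. The CCAAT box, which holds no CpG, differed little in these pooled shares, at 36.0, 37.6, 37.2 and 33.7%. At like CpG counts it was commoner in the set in each class from 3 CpGs up. With 10 to 14 CpGs it was present in 47.2% in the set and 36.4% elsewhere. The shares were 42.1 and 38.3% at 20 to 24 CpGs, and 26.6 and 24.9% at 30 or more. The GC box and the YY1 core share the letters GGCGG, and the CRE core and the E-box share ACGT, so matches can overlap. A match is a match of letters and shows no binding.

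Methylation inside the set was low in every library and differed between groups. The mean over the 14339 windows was 0.260, 0.261 and 0.274% in the TET_WT D0 libraries, 0.308, 0.313 and 0.313% on D1, and 0.596, 0.605 and 0.666% on D2. In DNMT_WT it was 0.328, 0.331 and 0.338% on D0, 0.365, 0.360 and 0.337% on D1, and 0.961, 0.942 and 0.963% on D2. In TET_KO it was 0.667, 0.691 and 0.730% on D0, 0.784, 0.768 and 0.757% on D1, and 1.08, 1.16 and 1.06% on D2. Each TET_KO library lay above each TET_WT library of the same day, and each D2 library lay above each D0 library of its line. The D0 and D1 libraries overlapped in DNMT_WT.

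From D0 to D2 the mean rose by 0.357 ± 0.0223 points (SE) in TET_WT, by 0.623 ± 0.00729 in DNMT_WT and by 0.403 ± 0.0346 in TET_KO. The excess of TET_KO over TET_WT was 0.431 ± 0.0188 points on D0. It was 0.458 ± 0.00798 a day later and 0.477 ± 0.0366 on D2. Over all autosomal windows the same differences were 27.3, 46.7 and 19.02 points for the gains and 26.4, 26.1 and 18.1 points for TET_KO over TET_WT. With no allowance for the assay background given below, the groups did not keep their genome-wide order. DNMT_WT on D0 lay above TET_WT on D0 in the set (0.332 and 0.265%) and below it over all autosomal windows (3.17 and 25.4%). The member windows carried 1.04% of the autosomal mean in TET_WT on D0 and 1.55% in TET_KO on D2, but 10.5% in DNMT_WT on D0.

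The 6 mitochondrial windows, DNA that is commonly taken as unmethylated, give a measure of how much signal the assay returns without CpG methylation. Their library means were 0.107 to 0.265%, and their single values ran from 0.0394 to 0.755%. The ratio of the set's mean to the mitochondrial mean was lowest in DNMT_WT on D0, at 1.46, was 2.24 in TET_WT on D0, and was highest in TET_KO on D2, at 5.43. The mitochondrial group means were 0.118% in TET_WT and 0.183% in TET_KO on D0, and 0.160 and 0.202% on D2, so there they moved in the same direction by smaller amounts. In DNMT_WT the mitochondrial mean went the other way, from 0.228% on D0 to 0.188% on D2. That D0 value was the highest of the 9 groups. With the mitochondrial mean subtracted, the set held 0.104 points in DNMT_WT and 0.147 in TET_WT on D0, the order seen over all autosomal windows. The part of incomplete conversion in the differences was not tested.

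**Figure D2:**
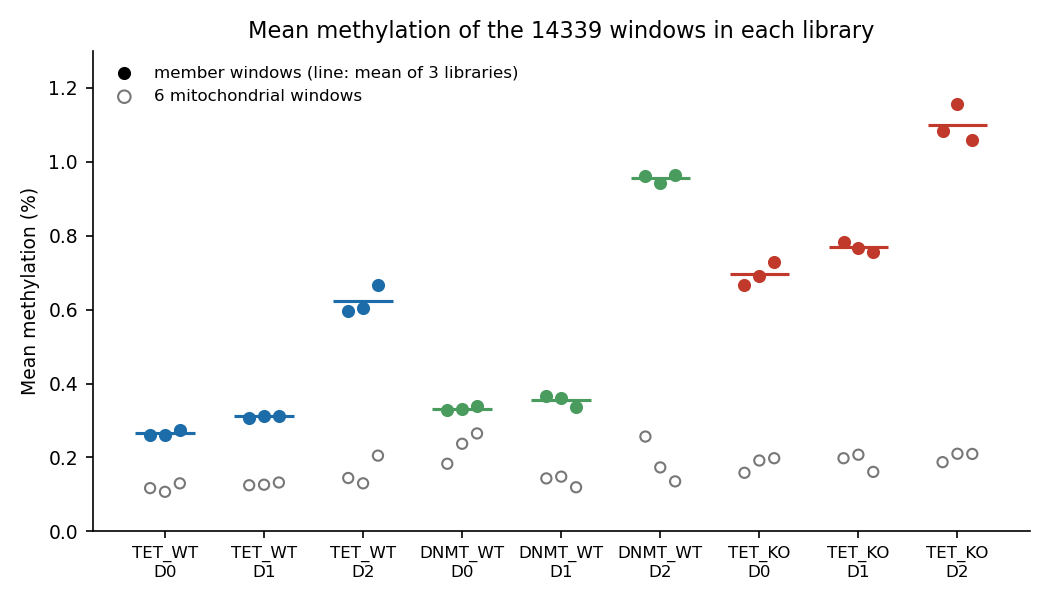
Mean methylation (vertical axis, percent) of the 14339 windows in each of the 27 libraries (filled points, with a line at the mean of 3) and of the 6 mitochondrial windows in the same libraries (open points), by line and day. The TET_KO points lie at 0.667 to 1.16% and above the TET_WT points of the same day, and the mitochondrial points lie at 0.107 to 0.265%.

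The low means came from many windows at or near 0. In the TET_WT libraries 28.04 to 54.8% of the set was listed at exactly 0, in DNMT_WT 27.01 to 52.7% and in TET_KO 15.5 to 31.0%. No window was listed at 0 in all 27 libraries. The table holds no read counts, so a value of 0 has no stated depth, and no interval can be given. The mean over 27 libraries was under 0.5% for 60.2% of the windows and under 1% for 82.8%. In 1735 windows (12.1%) at least 1 library reached 5% or more, and the highest single value was 14.9%. The highest of the 9 groups was TET_KO on D2 for 4442 windows (31.0%) and DNMT_WT on D2 for 3087 (21.5%), while TET_WT on D0 was highest for 529 (3.69%).

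The rise of the mean was not spread evenly over length. In the shortest 3588 windows (192 to 397 bp) the mean was 0.256% ± 0.0206 in TET_WT on D0 and 0.527% ± 0.0270 in TET_KO on D2. In the longest 3580 (745 to 33905 bp) the same groups had 0.309% ± 0.00562 and 2.03% ± 0.0777. TET_KO exceeded TET_WT on D0 by 0.141 points in the former and by 0.868 points in the latter. TET_WT on D0 was thus nearly level across lengths, while TET_KO on D2 was not. On D2 the wild-type lines were not level either. The shortest and longest windows then held 0.346 and 1.11% in TET_WT, and 0.446 and 1.76% in DNMT_WT. In TET_KO on D0 they held 0.397 and 1.18%.

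At the 5% line the set had no gap. There were 956 windows whose highest group mean was 4 to 5% and 784 other autosomal windows at 5 to 6%. Just inside were windows over Pdcl3 (4.996%), Ppt2 (4.991%), Rnf5 (4.990%), Rell1 (4.981%) and Eri2 (4.981%). Just outside were windows over Zfp518a (5.001%), Apobec3 (5.001%), Uvssa (5.008%), Ntpcr (5.010%) and Taf1d (5.012%). All 10 had their highest group mean on D2, 7 of them in TET_KO.

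The 5 lowest windows were 288 to 342 bp long, and 2 of them held a gene start. The lowest (chr19:5388217-5388542) overlapped Sart1, a splicing factor gene, and the start of D330050I16Rik, with a mean over 27 libraries of 0.0330%. After the window at Ddi2 came windows over Lemd2, a nuclear envelope protein gene (0.0447%), Fxr1, an RNA-binding protein gene (0.0447%), and Mxi1, a MYC antagonist gene (0.0494%). The longest entries are of another kind. The 33905-bp window at Srp54c and Fam177a2 (chr12:55197149-55231053) and the 10685-bp window at the histone genes H2ac23, H2bc23 and H4c17 (chr13:21801656-21812340) are the 2 that exceed the autosomal median length. Both lie over multicopy genes, where reads may not map to 1 place, and their values are uncertain.

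Within the set, single windows departed from the mean in both directions. The 5 windows with the largest excess of TET_KO over TET_WT lay near Dlx2, a homeodomain gene of the forebrain, and over Gm52178, Zfp64, Creb3l1 and Zfp516, and had TET_KO means of 3.74 to 4.97% over the 3 days. Near Dlx2 (chr2:71540960-71541582) TET_WT held 0.262, 0.531 and 0.333% on D0, D1 and D2, and TET_KO held 3.84, 4.76 and 4.75%. DNMT_WT, at 0.726, 1.44 and 0.694%, lay with TET_WT there.

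In the other direction, the 5 windows with the largest shortfall in TET_KO lay over Peg10, Epc2, Plagl1, Zswim6 and Lrrc8d. Of these, Peg10 and Plagl1 belong to imprinted loci, where the parental alleles carry different marks. Both windows were under 5% in all 9 groups by the rule, and alleles were not told apart, so the values show no imprint there. At Peg10 (chr6:4747761-4748299), a paternally expressed gene, the TET_WT libraries read 4.61, 4.76 and 4.74% on D0, 1.96, 10.6 and 0% on D1 and 8.58, 0 and 1.90% on D2. The TET_KO libraries read 0.619, 0.750 and 0.504% on D0, 0.791, 0 and 0.403% on D1 and 0.768, 0.843 and 0.458% on D2. DNMT_WT was listed at 0 in all 3 D0 libraries. The lines did not overlap on D0, but on D1 and D2 at least 1 TET_WT library was listed at 0. At the start of Plagl1 and Hymai (chr10:13090576-13091073) TET_WT group means were 1.88, 3.91 and 2.68% and TET_KO means 0.786, 0.236 and 0.988%. The D1 mean there rested on a single library at 11.7%, the others being listed at 0. Single libraries also carried the highest TET_WT group means at Epc2 (14.8% on D2), Zswim6 (9.95% on D1) and Lrrc8d (13.9% on D1). The other libraries of those groups read 0.750% or less.

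Rises from D0 to D2 inside the set stayed small by the rule. The largest, averaged over the 3 lines, lay over a window between genes with Nkain1 as the nearest start, and over Ldb1, Plxna4, Zfas1 and a tRNA gene, n-TWcca4. At Ldb1, a cofactor of LIM homeodomain proteins (chr19:46045399-46047385), TET_WT went from 0.432 to 3.59%, DNMT_WT from 0.0535 to 4.87% and TET_KO from 1.68 to 4.98%. At Zfas1 and its snoRNA Snord12 (chr2:167063177-167065308) the TET_WT libraries were listed at 0 on D0 and read 8.21, 2.18 and 3.92% on D2, while TET_KO read 1.84, 1.74 and 2.90% on D2.

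Gene families differed in how many of their members carried an unmethylated window. Of 20346 protein-coding autosomal genes 9020 (44.3%) overlapped at least 1, and of all 46060 autosomal genes 10541 (22.9%) did, with lncRNA genes at 9.89% and pseudogenes at 0.432%. These shares describe the files, and the lists below were chosen with results of these data known, so the counts are not tests. The part of gene length and CpG content in these shares was not tested.

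Among ribosomal protein genes, 65 of 68 had an unmethylated window. Rpl7a had 2 of its 3 windows in the set, with a mean of 0.150% over 27 libraries, and Rps3 and Rpl23a had none. Of 33 measured genes of general cell function, 27 had one, Actb, the gene of cytoplasmic beta-actin, with 3 of its 5 windows. All 41 genes of CpG-island binding and chromatin factors had one, among them Kdm2b, whose zinc finger binds unmethylated CpGs, with 6 of 40 windows. Epop, a partner of Polycomb complex 2, lay entirely in the set with 5 of 5 windows and a mean of 0.405%.

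Hox genes, which specify position along the body axis, had an unmethylated window in 29 of 39 cases. Hoxa3 had 7 of 25, and those 7 held 0.158% in TET_WT and 1.14% in TET_KO on D0, while its other windows held 7.10% ± 0.436 and 26.7% ± 0.688. Hoxd4 and Hoxc4 had none. Counted by gene start, 4 of 22 Hox genes (18.2%) lay in the set, against 33.4% of protein-coding genes, and 43 of 50 ribosomal protein genes did. Other homeodomain genes had one in 67 of 82 cases, with 6 of 8 windows at both Pou3f3 and Pou4f1, regulators of neurons. Other developmental transcription factors had one in 69 of 83 cases. Foxd3 was covered throughout (5 of 5 windows, 0.632%), Sox1 had 6 of 7, and Tbx6 and Msgn1, genes of the presomitic mesoderm, had none. Signalling genes of patterning reached 42 of 61, led by Ptch1, the Hedgehog receptor, with 8 of 25 windows, while Cer1 and Wnt2b had none.

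Naive pluripotency genes had an unmethylated window in 21 of 30 cases and formative or primed epiblast genes in 21 of 27. Sox2 was in the set with 4 of 4 windows (0.310%), Myc and Tbx3 with 4 each, and Tcl1 and Pecam1 with none. Among the formative genes, Zic5 had 5, Zic2 4 and Pou3f1 4. Regulators of blood and endothelium reached 27 of 38, with Cebpb at 5 of 6 windows and 0.321%, Ikzf1 and Myb, both needed for blood cell formation, at 3 each, and Erg and Eng with none.

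Germline genes stood at the other end. Only 2 of 39 measured, Tdrd5 and Syce2, had an unmethylated window, 1 each, and olfactory receptor genes, a list added after the other lists, had 0 of 1095. The Tdrd5 window, in a gene of the piRNA pathway, held 0.381% over 27 libraries. Tdrd1, of the same pathway, had none in 15 windows, and its body held 35.6% ± 1.02 in TET_WT on D0 and 69.6% ± 3.87 on D2. Imprinted loci lay between, at 21 of 40, with Zdbf2 at 5 of 28 windows, Gnas at 4 of 29, Grb10 at 3 of 24 and Mirg and Rian at none. Of 30 histone genes that could be matched, 22 had one, and these clustered copies carry the mapping limit given above.

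**Figure D3:**
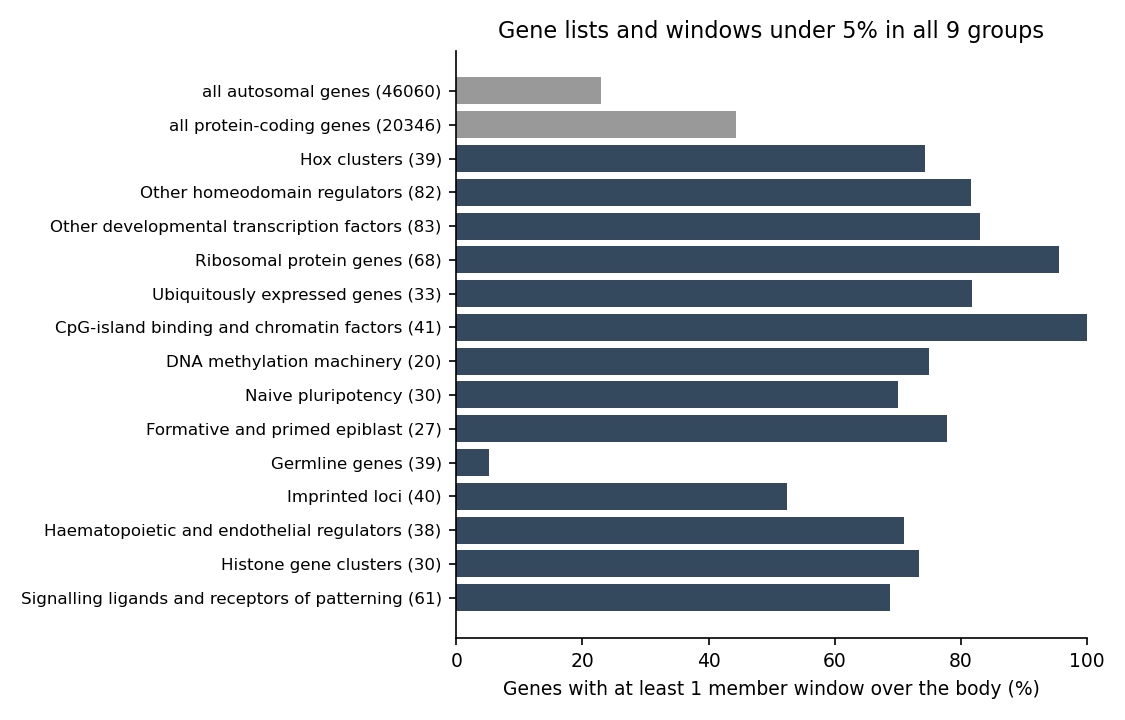
Share of genes with at least 1 unmethylated window over the body (horizontal axis, percent) for each gene list, with the number of genes measured in brackets and all genes and all protein-coding genes in grey. Chromatin factors reach 100% (41 of 41) and ribosomal protein genes 95.6%, and germline genes lie lowest at 5.13%.

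The genes of the methylation machinery carried such windows themselves, in 15 of 20 cases. Tet1, Tet2 and Tet3, the genes disrupted in TET_KO, each had 2, with means over 27 libraries of 0.434, 0.355 and 1.08%. Their methylation does not report the knockout. In TET_KO on D2 the Tet1 windows held 0.525% and the Tet2 windows 0.225%, while the other windows of these genes held 74.7% ± 1.77 and 65.9% ± 1.36. The Tet3 windows held 2.02% in TET_KO and 0.574% in TET_WT on D2. Dnmt3a, a de novo methyltransferase gene, had 3, with 2.44% in TET_KO on D2, and Dnmt3b had 1, listed at 0 in the TET_WT group means of D0 and D2. Dnmt1 had 1, Uhrf1, which guides DNMT1 to replicated DNA, had 2, and Dnmt3l had none in 7 windows. Setdb1 and Zfp445, which act on heterochromatin and imprints, also had none.

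The rule was also applied to the wild-type lines alone, and adding the TET_KO groups can only shrink that set. In the 6 wild-type groups 15546 autosomal windows were under 5%, and 14339 of them (92.2%) were also under 5% in all 3 TET_KO groups. The other 1207 (7.76%) were not, but most passed the line by little. In their highest TET_KO group 117 reached 10%, 9 reached 20% and 2 reached 30%. They were longer than the set (median 1026 bp), 29.9% held a gene start, and 50.7% lay next to an unmethylated window. Their mean was 0.658% in TET_WT and 4.51% in TET_KO on D0, and 2.57 and 7.07% on D2.

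A window of Lhx9, a LIM homeodomain gene of limb and gonad, stood far from the others. At chr1:138841661-138842298, 146 bp from the gene start and 638 bp long, TET_WT read 0.179, 0 and 0% on D0 and 7.01, 0.439 and 0.226% on D2. TET_KO read 81.0, 74.2 and 66.1% on D0 and 86.8, 86.9 and 88.7% on D2. DNMT_WT stayed at 0 to 1.81% in all 9 libraries. Next came a window at Fzd7, a WNT receptor gene, with TET_KO means of 25.02, 25.9 and 31.6%, and windows at Gng10, C130071C03Rik and AI506816 with TET_KO D2 means of 28.9, 26.6 and 27.7%. These were chosen for their TET_KO values, so the contrast is a description.

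Outside the runs, methylation rose within the first neighbouring windows. There were 17192 flank windows, those next to a run and not in the set, with a median length of 3097 bp. On D0 they held 11.2% ± 0.162 (SD, n = 3) in TET_WT, 1.69% ± 0.0502 in DNMT_WT and 28.8% ± 0.627 in TET_KO. On D2 they held 29.2% ± 1.79, 31.5% ± 0.337 and 41.2% ± 0.776. The windows 2 steps away already held 22.8, 3.19 and 52.3% on D0 and 54.0, 54.9 and 71.9% on D2. At 5 steps the D2 values were 58.3, 57.4 and 74.7%, and they changed by less than 1 point from there to 10 steps in all 3 lines.

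**Figure D4:**
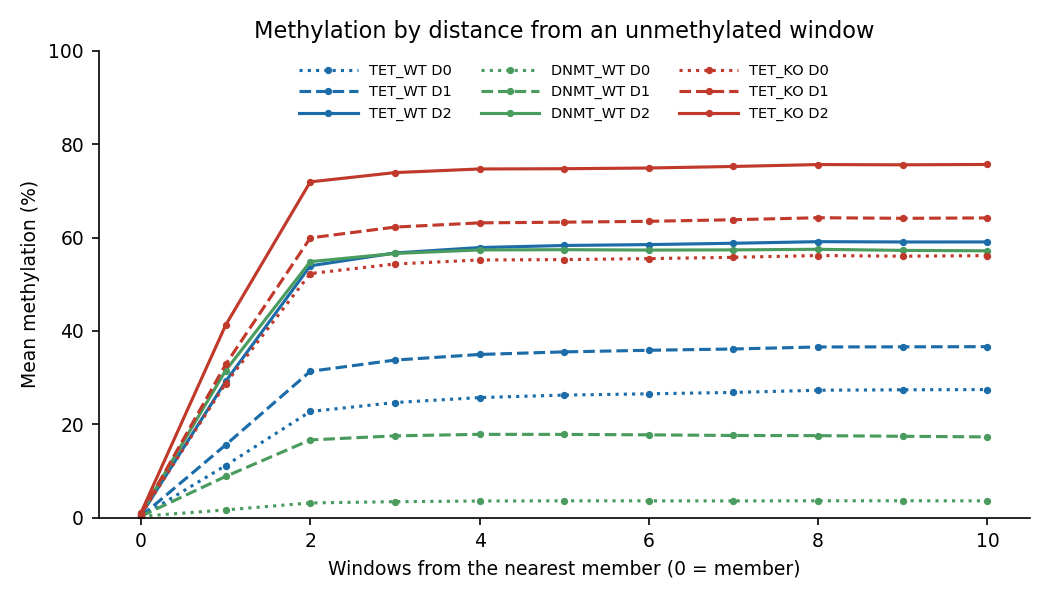
Mean methylation (vertical axis, percent) of autosomal windows by the number of windows to the nearest unmethylated one (horizontal axis, 0 being the set itself) for each line (colour) and day (line style), each point the mean of 3 libraries. All 9 curves start near 0, and at 2 windows they span 3.19% (DNMT_WT D0) to 71.9% (TET_KO D2).

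Most flank windows gained methylation and most were higher in TET_KO, with smaller median differences than windows elsewhere. Flank windows, like all other autosomal windows outside the set, had failed the rule, so each had a mean of 5% or more in some group. They were thus chosen in part by the values compared here. How much that choice adds to the shares called higher was not tested. The test was that of limma, fitted across all 444250 nuclear windows with complete values, and a call needed 10 points or more and a p under 0.05 after Benjamini-Hochberg adjustment. From D0 to D2, 12502 of 17192 flank windows (72.7%) rose in TET_WT, where 93.5% of all windows were called higher. In DNMT_WT 84.5% rose, with 95.4% of all windows, and in TET_KO 62.1%, with 92.2% of all windows. The median flank difference was 17.7, 29.4 and 12.6 points in these lines, and 29.5, 51.9 and 20.3 points in the 390610 autosomal windows that were neither in the set nor flanks. Flank windows called lower numbered 2 in TET_WT (0.0116%), 2 in DNMT_WT (0.0116%) and 1 in TET_KO (0.00582%), beside 0.0018, 0.000675 and 0.00113% of all windows.

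TET_KO was called higher than TET_WT in 72.9% of flank windows on D0, where the share of all windows was 92.9%. On D1 the flank share was 72.5% beside 92.6% of all windows, and on D2 it was 57.2% beside 84.3%. The median flank difference was 17.2, 16.8 and 11.4 points on the 3 days, and 28.2, 28.04 and 18.4 points in the remaining windows. Called lower were 1, 1 and 6 flank windows (0.00582, 0.00582 and 0.0349%), beside 0.0223, 0.0248 and 0.0542% of all windows. The comparisons with TET_WT and the D0 to D2 gains share libraries, so they are not separate evidence. With the median of each library subtracted first, which takes away the median difference of all windows (17.9 to 49.98 points), 43.4 to 70.3% of the flank windows were called lower and 0.297 to 2.37% higher. Of all windows, 8.65 to 32.7% were then called lower and 0.397 to 21.8% higher. The rises therefore hold for the percent values as deposited, and the direction turns relative to the genome median.

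The difference between flanks and the remaining windows was tested over libraries by exact two-sided permutation within days or lines. The flank mean less the mean of the remaining windows was -15.7 ± 0.250 points in TET_WT and -26.0 ± 0.533 in TET_KO on D0 (SD, n = 3). The difference of the lines was -10.2 points on D0 and again on D1, and -7.03 on D2. Averaged over days, this contrast was -9.16 points (exact p = 0.00025, the smallest that 8000 arrangements can give), and each day alone gave p = 0.1, the smallest exact value for 3 against 3. On none of the days did the libraries of the 2 lines overlap. In points, the gain from D0 to D2 was smaller in flanks. Its difference was -10.7 for TET_WT, -19.3 for DNMT_WT and -7.499 for TET_KO, or -12.5 on average (exact p = 0.00025). Both contrasts hold for points alone, since flanks started lower. In TET_WT flanks went from 11.2 to 29.2%, and the remaining windows from 26.9 to 55.6%. On D0 the TET_KO means were 28.8 and 54.7%. As a proportion of the remaining windows, flanks were thus not lower on D2 or in TET_KO. Proportions were not tested. Flank windows are shorter than the remaining ones. Against remaining windows weighted to the lengths of the flanks, an alternative added after the data were seen, the contrasts were -6.77 and -10.4 points (exact p = 0.00025 for each). With that weighting the D2 difference of the lines shrank to -3.69 points and the difference in the gain of TET_KO to -4.31. Windows 2 to 5 steps away were set against all other autosomal windows outside the set, which here include the flanks. The averages then had the other sign, at 0.670 points (exact p = 0.203) for the knockout and 3.15 points (exact p = 0.005) for the gain. D2 (-1.88) and the gain of TET_KO (-0.153) stayed below 0. How much the low flanks in that reference add was not tested.

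Individual flank windows ranged widely. The highest in TET_KO on D2 lay in Cep83, a centrosome protein gene (91.4%), and over Adprhl2 (91.3%). The largest excess of TET_KO on D0 lay in Eif2b5, a translation initiation factor gene (chr16:20500210-20502748), where TET_WT read 5.88, 6.47 and 4.74% and TET_KO 61.4, 58.1 and 62.6%. On D2 that window held 53.3% in TET_WT and 82.6% in TET_KO. The window next to it is one of the set.

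The flanks of a run were not alike on its 2 sides. For the 4205 runs with gene starts on 1 strand, the first window upstream of the gene held more methylation than the first window downstream, into the gene. In TET_WT the values were 13.1 and 10.3% on D0 and 33.1 and 28.1% on D2, and in TET_KO 31.5 and 28.2% on D0 and 44.8 and 41.0% on D2. Upstream was higher in all 27 libraries, and downstream less upstream was -0.0756 points in DNMT_WT on D0 and -5.05 points in TET_WT on D2, the group means nearest to and farthest from 0. From the second window on the order turned. At 3 windows the downstream side was higher in all 27 libraries, at 56.3 against 50.5% in TET_WT on D2 and 73.3 against 66.4% in TET_KO on D2. Upstream flank windows were also longer (median 3494 bp) than downstream ones (3047 bp), and some windows further out belong to other runs (202 of 4175 at 3 windows upstream and 117 of 4194 downstream). No test was planned for this difference.

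**Figure D5:**
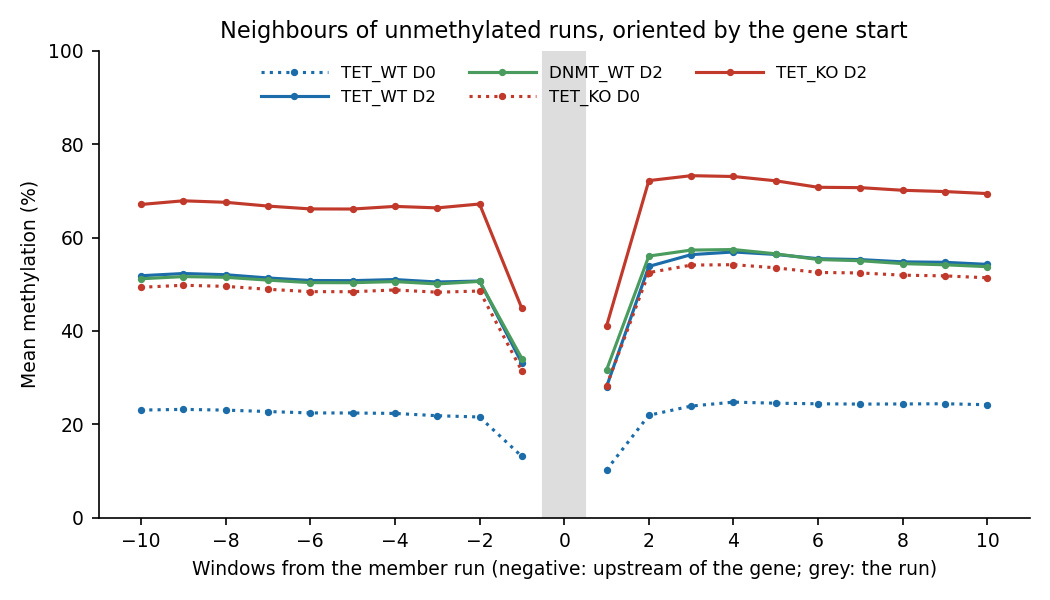
Mean methylation (vertical axis, percent) of windows counted from the edge of a run (horizontal axis, negative numbers upstream of the gene and positive numbers downstream) for runs with gene starts on 1 strand, in 5 of the 9 groups, each point the mean of 3 libraries. At 1 window the upstream side is higher (33.1 against 28.1% in TET_WT D2), and from 2 windows on the downstream side is higher.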

How the data were processed

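Whole-genome bisulfite libraries were made from sheared DNA with adapter ligation, bisulfite conversion and amplification, per the labels' protocols. Trim Galore 0.6.6, cutadapt 2.3, Bismark 0.23.0 and GRCm38 are named in the submitters' processing notes. The authors deposited CpG methylation as a percent per window and library, with no counts, so depth and any coverage filter are not given in the sources used here. The table holds 453245 windows. Values other than 0 and 100 that were the same in 2 libraries made up at most 0.0110% of windows.

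The members, gene lists and named windows were chosen with earlier results of these data known. Windows were named by rank: longest runs, longest and shortest windows, lowest means, nearest to the limit, largest differences, and per list up to 4 genes with most windows and 2 with none. Of the windows so listed only those that show a point are given. Gene bodies, starts, promoters and miRNA hairpins came from RefSeq tables (GRCm38.p6). The promoter table covers 27025 genes and lacks chromosome 18, and in 73.4% of genes a start matched the edge of the gene body. Sequences were printed for promoters of named genes that overlap no protein-coding gene body, a condition set after the data were seen.

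Flank tests used limma 3.58.1 (R 4.3.3, lmFit and eBayes with trend) with a mean per group over 27 libraries, 18 residual degrees of freedom and a median residual SD of 2.60 points. The fit was tested on simulated data, where planted differences of 10 points were recovered less often than larger ones. Far fewer windows differed there than here, and no minimum difference was set. That recovery therefore cannot say how many flank windows the calls above missed. Library means were compared by exact permutation. Same-numbered libraries had correlations of -0.0549 to 0.0570 in their deviations from group means over 108 pairs, so numbers were not used as pairs. Alternatives were other limits for the set, 20 points, centring, no variance trend, a replicate block, 1 library left out, other flank definitions, medians and length weighting. Other steps ran in Python 3.11.15 (pandas 2.3.3, numpy 2.4.6, scipy 1.17.1), with plots from matplotlib 3.10.9.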

Additional observations from a re-analysis of the deposited data

How the results depend on the processing

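The number of unmethylated windows was 12234 at a limit of 3%, 13383 at 4%, 16148 at 7.5%, 17641 at 10%, 12604 when every library had to be under 5%, 14944 with missing values kept, and 14263 to 14373 with 1 library left out, when 98.99 to 99.9% of the set was kept. The median length moved to 502 bp at 3%, 593 bp at 10% and 517 bp with every library under 5%, and the gene-body share to 96.0% at 3% and 94.97% at 10%.

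With 20 points in place of 10, the flank share called higher fell to 43.2% in TET_WT, 66.9% in DNMT_WT and 13.8% in TET_KO from D0 to D2, and to 41.0, 39.6 and 13.8% for TET_KO against TET_WT on D0, D1 and D2. The shares of all windows were then 77.5, 92.6 and 50.4%, and 81.6, 80.9 and 40.5%. With each library centred, it was 1.11% in TET_WT, 2.37% in DNMT_WT and 0.297% in TET_KO from D0 to D2, and 1.18, 1.02 and 1.36% on the 3 days. In windows 2 to 5 away it rose to 94.96% (TET_KO D0 to D2) and 86.8% (TET_KO against TET_WT on D2). These are near the shares of all windows, 92.2 and 84.3%. The other comparisons gave 96.3 to 98.3% there, beside 92.6 to 95.4% of all windows. For windows 2 to 5 away the contrast of means, with the flanks in the reference, changed sign. It was 0.670 points for the knockout (2.43 on D0, 1.47 on D1) and 3.15 for the gain (4.16 in TET_WT, 5.46 in DNMT_WT). These settings change which windows or differences are counted, and the cause beyond that was not tested.

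With 1 library left out, the flank shares were 70.1 to 74.2%, 84.3 to 84.6% and 60.5 to 63.5% for the gains of TET_WT, DNMT_WT and TET_KO, and 72.2 to 73.2%, 71.3 to 73.1% and 53.3 to 61.7% for the knockout on D0, D1 and D2. The contrasts of means were -9.34 to -9.00 and -12.6 to -12.3 points (exact permutation p = 0.00025 for each). Replicate numbers did not pair the libraries. With the replicate number as a block, limma gave the same flank shares (72.7, 84.5, 62.1, 72.9, 72.5 and 57.2%), and the contrasts stayed at -9.16 and -12.5 points (exact sign permutation p = 0.0039). Neither the block nor the model without the variance trend changed the call of a flank window (0 in each of the 6 comparisons), though without the trend 1 to 154 of all windows changed. Read depth is unknown, so the precision of a single window value, and of a value of 0 most of all, cannot be stated.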

Other observations

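Small RNA genes and the X chromosome add to the picture. Of 911 autosomal miRNA hairpins of the RefSeq table that fell in a measured window, 56 (6.15%) had their middle in an unmethylated window. Among them were Mir9-3 and Mir132, miRNAs of neurons, Mir375, known from pancreatic islets, Mir203, known from skin, and Mirlet7i. These were picked as better known and do not stand for the 56. Of 378 autosomal tRNA genes, 104 (27.5%) overlapped such a window, and of 1255 snoRNA genes 29 (2.31%) did. Under the same limit of 5% in all 9 groups, 291 of 18560 X windows (1.57%) and 0 of 3549 Y windows qualified, against 3.40% of autosomal windows.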
